A study of Mus musculus with 7 samples.

Results

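Esam, Plvap, Emcn, Egfl7 and Cd34 encode surface and secreted proteins that are used as markers of endothelial cells, the cells that line blood vessels. They were taken from the authors' deposited table of 1632 probe sets as every probe set whose gene number or description symbol is that of a member. The choice gave 6 probe sets, 1 each for Esam, Plvap, Emcn and Cd34 and 2 for Egfl7, and the 5 genes are 5 of the 1310 that could be named from that table. The table lists probe sets that the authors found to differ between the populations compared here, so the direction of each member was set by its choice, and the tests of that contrast below are printed as descriptions. Probe sets that the table does not list were not named, and any others for these genes were not analysed here.

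The arrays compared mouse mammary gland cells sorted by how much of the Hoechst dye they keep. Side population (SP) cells, which pump the dye out, were on 3 arrays, and non-side population (NSP) cells, which keep it, were on 3. Another array carried the Stratagene universal mouse reference RNA, a commercial RNA that the study used to normalize its arrays, and no age, strain, genotype or treatment is given for the mice. Per the design text both populations were sorted in 4 replicates, 2 chips were removed as outliers, the RNA was amplified in 2 rounds, and 1 of the 2 reference arrays is analysed here.

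Endothelial cells are joined by junctions that control what leaves the blood, and their surface carries a coat of heavily glycosylated proteins. Esam is an adhesion molecule of the immunoglobulin family at endothelial tight junctions, which platelets also carry. Plvap forms the diaphragms of endothelial fenestrae and caveolae. Emcn (endomucin) and Cd34 are sialomucins, membrane proteins covered in sialic acid-rich sugar chains. Emcn is known from venous and capillary endothelium, whereas Cd34 also marks blood stem and progenitor cells and some fibroblasts. Egfl7 is a secreted protein with EGF-like domains that endothelial cells deposit in the vessel matrix. The mammary gland is an epithelial tree in a stroma of fat, fibroblasts and vessels, so an unsorted suspension of its cells can hold all of these types. In these bulk samples a difference in the number of cells of a type and a difference in RNA per cell cannot be told apart.

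Promoter windows were available for 3 of the 5 genes, from RefSeq on the mouse assembly GRCm38.p6, and 4 of their 5 windows are shown because ETS factors, a transcription factor family active in endothelium, bind a core that can be searched for in genes whose signals differ together. Each window runs from 250 bases before to 50 bases after an annotated start, on the plus strand and written 5′ to 3′. Capitals mark AGGAAG, a form of the site with that core, or, where the match lies on the other strand, CTTCCT.
Emcn, chr3:137340828-137341127: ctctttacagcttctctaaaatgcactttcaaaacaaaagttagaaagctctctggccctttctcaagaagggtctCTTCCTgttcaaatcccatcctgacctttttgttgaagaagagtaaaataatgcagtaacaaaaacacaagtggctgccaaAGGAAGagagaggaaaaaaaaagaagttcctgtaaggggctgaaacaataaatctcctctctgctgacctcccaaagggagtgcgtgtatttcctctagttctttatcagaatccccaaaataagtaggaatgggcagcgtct
Cd34, chr1:194938571-194938870: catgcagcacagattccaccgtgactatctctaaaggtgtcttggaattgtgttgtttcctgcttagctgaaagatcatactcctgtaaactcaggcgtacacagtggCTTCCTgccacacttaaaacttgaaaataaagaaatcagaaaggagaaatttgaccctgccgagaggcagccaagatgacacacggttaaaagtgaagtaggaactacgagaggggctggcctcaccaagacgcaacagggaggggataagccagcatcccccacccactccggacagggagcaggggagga
Egfl7, chr2:26580833-26581132: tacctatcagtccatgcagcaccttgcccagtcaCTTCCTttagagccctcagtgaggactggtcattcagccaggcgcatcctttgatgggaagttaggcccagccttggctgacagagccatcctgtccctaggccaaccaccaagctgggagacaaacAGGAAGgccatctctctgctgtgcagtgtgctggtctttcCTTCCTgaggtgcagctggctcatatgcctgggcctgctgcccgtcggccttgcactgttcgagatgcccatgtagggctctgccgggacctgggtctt
Egfl7, chr2:26583615-26583914: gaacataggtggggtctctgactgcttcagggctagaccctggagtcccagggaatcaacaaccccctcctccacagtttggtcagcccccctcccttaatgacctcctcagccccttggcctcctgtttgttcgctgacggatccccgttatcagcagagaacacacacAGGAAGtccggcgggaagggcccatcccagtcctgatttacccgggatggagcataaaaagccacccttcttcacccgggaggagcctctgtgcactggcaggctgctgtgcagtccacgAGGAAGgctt
The Emcn window held 2 matches, 174 and 93 bases before the start. The Cd34 window held 1, 142 bases before the start. The first Egfl7 window held 3, at 216, 89 and 49 bases before the start, and the second held 2, at 80 bases before and 40 bases after it. A further Egfl7 window, chr2:26586386-26586685, held none and was the richest of the 5 in CpG, with 31 CpG and 67.3% G and C, against 2 to 8 CpG in the windows shown. AGGAAG on either strand was found in 35.4% of all 32851 windows of this length in the RefSeq table. The other form of the ETS site searched, CGGAAG, found in 16.9% of all windows, was in none of the 5. The same held for AGATAA, the only form of the GATA site searched, found in 11.2%. Further forms of either site were not searched, so their absence is not shown. These matches describe the letters of the windows only.

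The signals are linear intensities as the authors deposited them, and each difference is the mean log2 signal in SP less that in NSP, with limma's moderated standard error (SE), over 3 arrays a group. A floor of 17, the 20th percentile over the SP and NSP arrays, replaced lower signals before the logarithm was taken. Pairs are the SP and NSP samples that share a number in the labels. The labels do not say that the samples came from different mice, and p-values then reflect only how far these samples spread, part of which may be technical.

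All 6 probe sets had higher signals in each SP sample than in any NSP sample. Over all 38115 probe sets tested, all 3 SP signals lay above all 3 NSP signals in 6.74%. With the pairs as a block, none of the 6 passed limma after Benjamini-Hochberg adjustment (adjusted p 0.376 to 0.451), and no probe set in the whole table did (0.0% of 38115, in either direction or among those higher in SP). At an unadjusted p under 0.05 all 6 passed, against 9.86% of all probe sets in either direction and 4.77% that were higher in SP. Since the authors had selected the members by this contrast, nothing is read from the member counts.

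The junction and surface proteins are given first. Esam (probe set 1460356_at; GRCm38.p6 chromosome 9, 37528089 to 37538319) had signals of 865.2, 859.6 and 703.2 in SP samples 1 to 3 and of 297.8, 251.9 and 340.1 in the NSP samples. The lowest SP sample, of pair 3, stood 2.07-fold above the highest NSP sample, which was of the same pair. The difference was 1.45 ± 0.22 (2.74-fold, limma unadjusted p = 0.00359, adjusted p = 0.376), and 0.816% of all probe sets tested had a larger one. Within pairs it was 1.54, 1.77 and 1.05.

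Plvap (1418090_at; chromosome 8, 71497753 to 71511806) had signals of 1028.2, 867.1 and 1309.5 in SP and of 351.1, 416.5 and 388.3 in NSP samples. The NSP samples were close together, and the SP samples spread more widely, with sample 3 the highest and sample 2 the lowest. Its difference was 1.45 ± 0.21 (2.74-fold, limma unadjusted p = 0.00338, adjusted p = 0.376), with 1.55, 1.06 and 1.75 within pairs. Esam and Plvap thus had the same mean difference to 2 decimals, while the smallest difference of Esam was in pair 3, where Plvap had its largest.

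Of the sialomucins, Emcn (1425582_a_at; chromosome 3, 137341062 to 137431069) had signals of 503.2, 689.1 and 619.9 in SP and of 133.7, 249.1 and 140.0 in NSP samples. NSP sample 2 stood apart from the other NSP samples and was still 2.02-fold below the lowest SP sample. The difference of 1.84 ± 0.21 (3.59-fold, limma unadjusted p = 0.00139, adjusted p = 0.376) was the largest of the 6 probe sets, and 0.231% of all probe sets tested had a larger one. Within pairs it was 1.91, 1.47 and 2.15, lowest in the pair of the NSP sample that stood apart.

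Cd34 (1416072_at; chromosome 1, 194938821 to 194961292) had signals of 453.0, 536.2 and 400.8 in SP and of 219.6, 225.7 and 205.4 in NSP samples. Its NSP samples differed least among the 6 probe sets, with an SD of 0.070 on the log2 scale (n = 3), and the lowest SP sample was 1.78-fold above the highest of them. The difference was 1.09 ± 0.16 (2.12-fold, limma unadjusted p = 0.00352, adjusted p = 0.376), with 1.04, 1.25 and 0.96 within pairs, and 2.64% of all probe sets had a larger one.

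The secreted protein Egfl7 (chromosome 2, 26581083 to 26592682) was measured by 2 probe sets, both assigned to it by the gene number of the authors' table, while the description there names Vezf1, a zinc finger transcription factor gene. The ending _x_at is the array maker's mark for probes that may also bind other transcripts, so the assignment of both is uncertain. Probe set 1451428_x_at had signals of 693.6, 833.3 and 820.6 in SP and of 283.8, 417.9 and 333.5 in NSP samples. The lowest SP sample was 1.66-fold above the highest NSP sample. Its difference was 1.19 ± 0.17 (2.29-fold, limma unadjusted p = 0.00280, adjusted p = 0.376), with 1.29, 1.00 and 1.30 within pairs.

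Probe set 1435823_x_at had signals of 407.2, 528.5 and 517.9 in SP and of 303.7, 327.9 and 247.4 in NSP samples. It had the narrowest gap of the 6, with SP sample 1 only 1.24-fold above NSP sample 2. Its difference was 0.73 ± 0.20 (1.65-fold, limma unadjusted p = 0.0272, adjusted p = 0.451), and 7.53% of all probe sets tested had a larger one, against 1.92% for the other Egfl7 probe set. The pair differences of 0.42, 0.69 and 1.07 were each below those of the other probe set for the same gene.

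**Figure D1:**
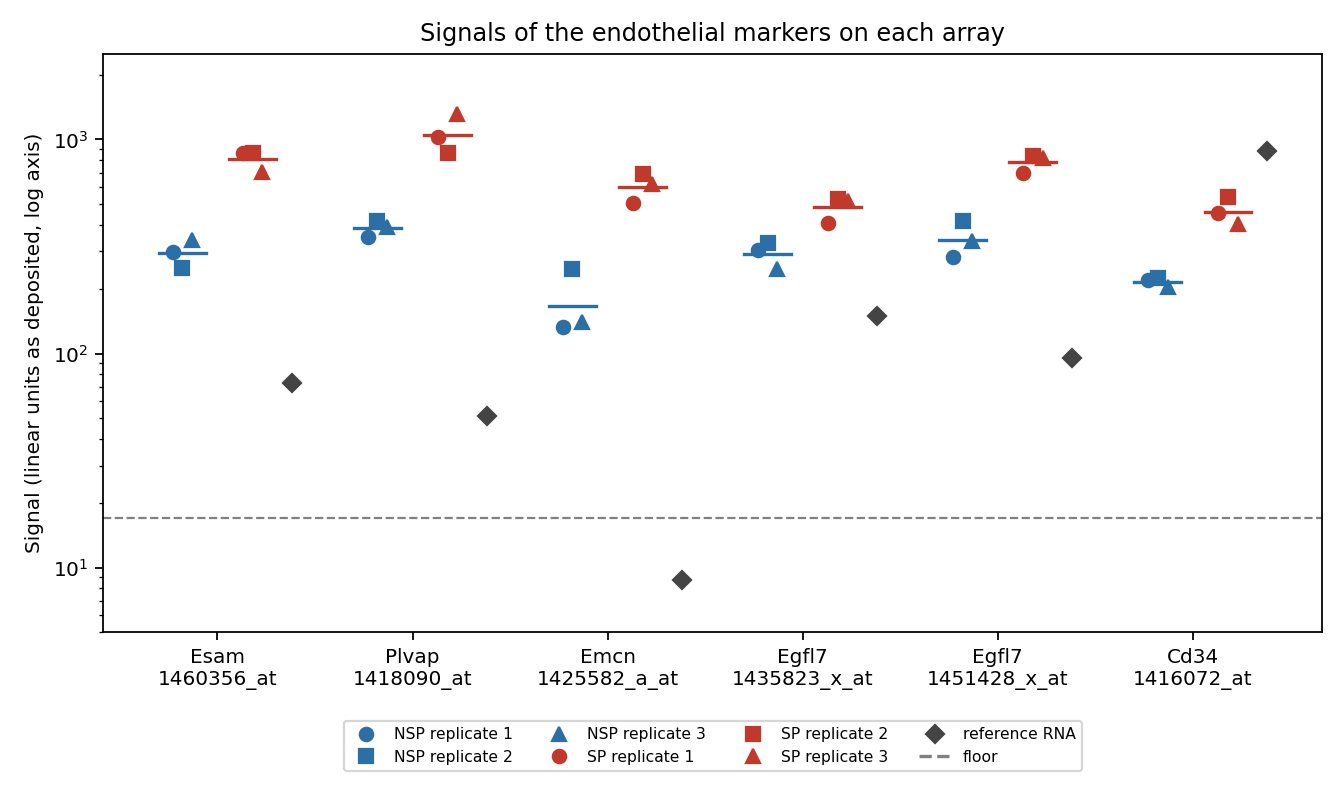
Signal of each member probe set (linear units as deposited, on a log axis) in the NSP samples (blue), the SP samples (red) and the reference RNA (dark diamond), with replicates 1 to 3 as circle, square and triangle, bars at the geometric means and a dashed line at the floor of 17. Every red point lies above every blue point of its probe set, and the diamond lies below both groups except for Cd34, where it lies above them at 884.4.

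Over the 6 probe sets, the median difference was 1.32, beside -0.0080 over all probe sets tested, of which the 5th and 95th percentiles were -0.94 and 0.87. All 18 differences within pairs were above 0, from 0.42 to 2.15. The pairs were not ordered alike across genes. The largest difference was in pair 3 for 4 probe sets and in pair 2 for the other 2, Esam and Cd34. The median over the 6 probe sets was 1.41 in pair 1, 1.15 in pair 2 and 1.18 in pair 3.

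The authors' deposited table holds a second summary of the same probes, made with dChip, a program that fits a model to the probes of each set. Its log values are read here as log2, for reasons given with the processing, and no fold is drawn from them. In the authors' deposited table all 6 probe sets were called present on all 6 arrays, and 751 of the 45101 probe sets of the array (1.67%) were listed as higher in SP. The authors' deposited table gave Esam the largest dChip difference of the 6, 1.67, with values of 10.07, 10.38 and 10.2 in SP and of 8.5, 8.6 and 8.55 in NSP samples. It ranked 20 of the 751 by that difference, and Emcn, with 1.45 in the authors' deposited table, ranked 34. The order of these 2 genes was thus the reverse of that in the signals, where Emcn differed by 1.84 and Esam by 1.45.

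For Plvap the difference in the authors' deposited table was 1.31 (rank 45), for Cd34 it was 1.26 (rank 49), and for the Egfl7 probe sets it was 1.03 (1435823_x_at, rank 77) and 0.78 (1451428_x_at, rank 126). The order of the Egfl7 probe sets was therefore also turned between the summaries. The sizes can be set against the signals only through the base of the logarithm. Read as log2, 3 of the 6 probe sets had a larger difference in dChip values than in signals and 3 a smaller one, with the medians at 1.29 and 1.32. Read as natural logs, 5 would be larger and 1 smaller, with a dChip median of 1.85 on the log2 scale, and the orders given here would be the same. The authors' deposited table gave paired p-values, not adjusted, of 0.00143 for Esam, 0.00229 for Emcn and 0.00117 for 1451428_x_at, and these 3 are on the authors' strictest list, of 90 probe sets. Plvap (0.0353), Cd34 (0.0165) and 1435823_x_at (0.0284) in the authors' deposited table stop at the list of 335. The lowest paired p-value was thus that of 1451428_x_at, which had the smallest dChip difference, with 0.73, 0.76 and 0.82 within pairs. For the lists of 90 and of 335, the authors' 50 permutations estimated the false discovery rate, the share of entries expected to be false. Its median was 0% and its 90th percentile 100% for both, so list membership is not firm.

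**Figure D2:**
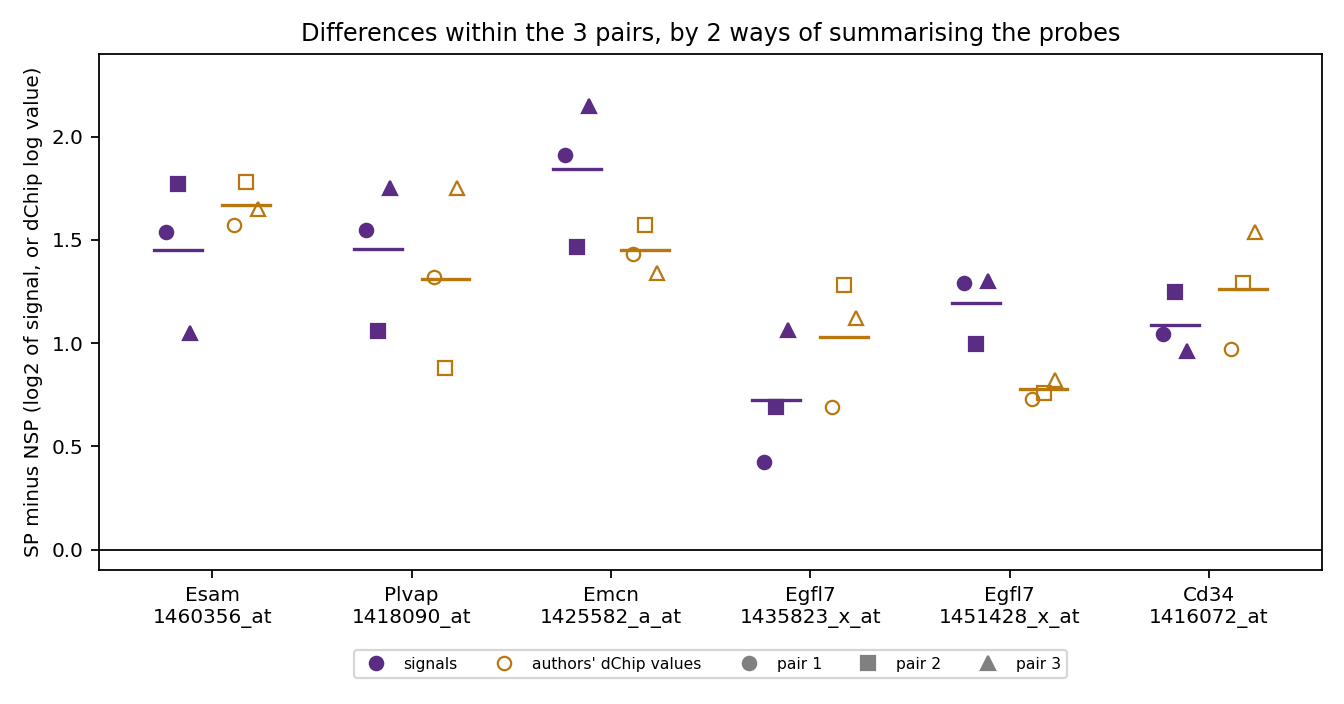
SP minus NSP within each of the 3 pairs (circle, square, triangle) for the log2 signals (filled) and the authors' dChip log values (open), with bars at the means. All points lie above 0, the Egfl7 probe sets change order between the summaries (0.73 and 1.19 in signals, 1.03 and 0.78 in dChip values), and the pair with the largest value differs between probe sets.

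Whether the members passed after adjustment depended on how limma estimated the spread. With an intensity trend, which lets the prior spread vary with the signal, and the pairs as a block, 5 of the 6 passed (adjusted p 0.00100 to 0.0152), beside 2.47% of all probe sets in either direction and 1.16% that were higher in SP. The same 5 passed with the trend and without the block (0.00167 to 0.0289), beside 1.0% and 0.352%. The probe set that did not pass in either was 1435823_x_at of Egfl7 (adjusted p = 0.0891 and 0.174). Without the block and without the trend none of the 6 passed (0.104 to 0.368), beside 0.0157% of all probe sets in either direction and 0.00262% higher in SP.

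**Figure D3:**
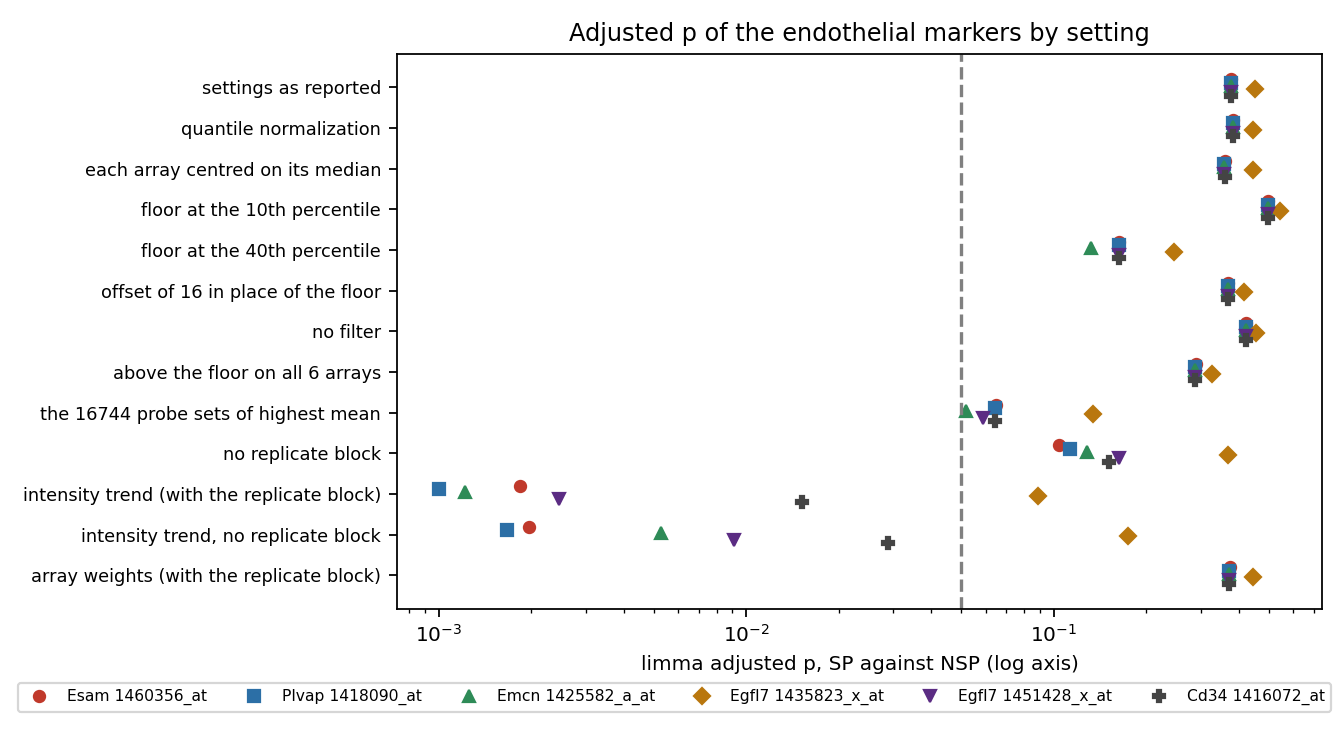
Adjusted p of each member probe set (log axis) under the reported settings and 12 alternatives, with a dashed line at 0.05. Only the settings with an intensity trend put points left of the line, and 1435823_x_at of Egfl7 stays right of it in every setting shown.

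The reference RNA gave a second contrast, other than the one behind the listing. Whether its use in normalizing the arrays entered the listed values is not known here. With 1 reference array it has no spread and no test. Esam had a signal of 72.9 in the reference, with SP 11.1-fold and NSP 4.04-fold above it. Plvap had 51.2 there, with SP 20.6-fold and NSP 7.51-fold above it. Both genes were thus above the reference in all 6 sorted samples, NSP included.

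Emcn had a reference signal of 8.8, under the floor. Set against the floor in its place, SP was at least 35.2-fold and NSP at least 9.83-fold above the reference, and at least 10.6-fold and 2.95-fold where a 40th percentile floor was set. Under a 10th percentile floor the reference signal was used as deposited, and the ratios to it were 68.1-fold and 19-fold. Egfl7 had 94.9 in the reference at 1451428_x_at (SP 8.22-fold, NSP 3.59-fold above it) and 150.0 at 1435823_x_at (SP 3.21-fold, NSP 1.94-fold above it). The order of the groups was SP, NSP, reference for each of these 5 probe sets, with no overlap between neighbours.

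Cd34 had the order reference, SP, NSP. Its reference signal of 884.4 was 1.92-fold above the SP mean and 4.08-fold above the NSP mean, and it exceeded the highest SP sample 1.65-fold. The reference lay below all 6 sorted samples for 5 of the 6 member probe sets, beside 23.9% of all probe sets tested and 41.4% of the 751 listed as higher in SP. It lay above all 6 for Cd34, as for 26.7% of all and 36.5% of the 751. For 4 of the 6 it lay at least 2-fold below each sorted sample, beside 4.78% of all and 20.4% of the 751, and 1435823_x_at was the probe set below but not by that much.

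**Figure D4:**
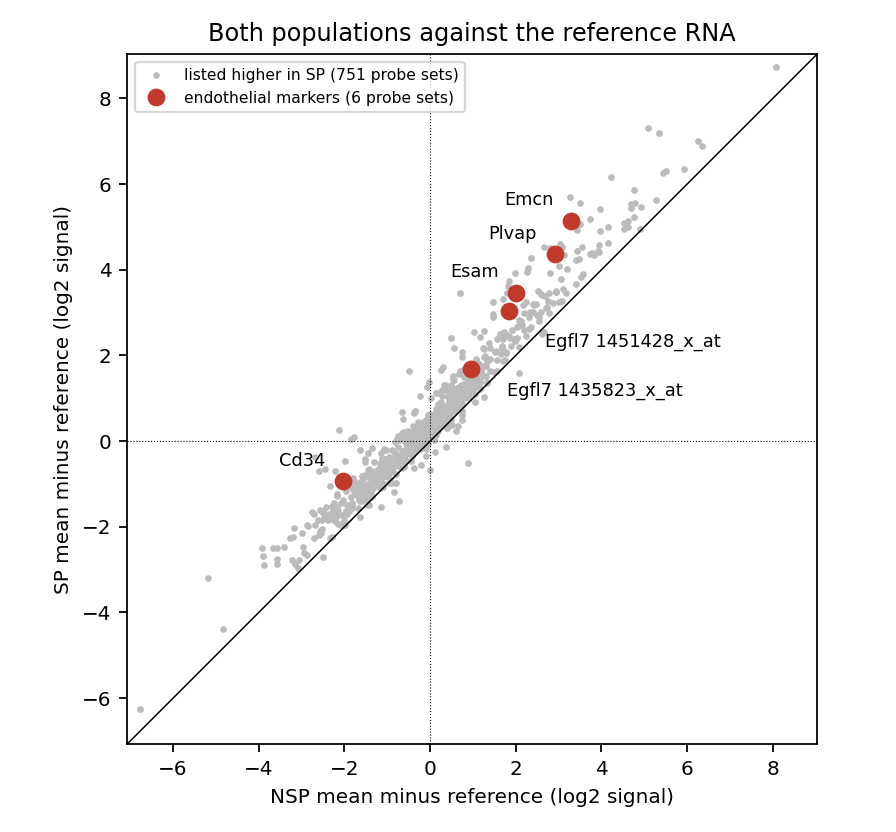
Mean SP minus reference against mean NSP minus reference (log2 signal) for the 751 probe sets listed as higher in SP (grey) and the 6 member probe sets (red), with the diagonal where SP equals NSP and dotted lines at 0. Emcn, Plvap, Esam and Egfl7 lie in the upper right, above the reference in both populations, and Cd34 lies in the lower left at -2.03 and -0.94. The point of Emcn is a lower bound on both axes, since its reference signal was under the floor.

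The listed genes whose signals ran most like each member were found by the distance between log2 profiles over all 7 arrays, each centred on its mean over the 6 sorted samples. Nearest to Esam were Apold1 (distance 0.65), an endothelial early response gene, the apelin receptor gene Aplnr (0.77) and Dio2 (0.80), a deiodinase gene. Nearest to Plvap were Shank3 (0.61), a scaffold protein gene, Adgrf5 (0.67) and Adgrl4 (0.76), both adhesion G protein-coupled receptor genes of endothelium. Emcn had Myct1 (0.64), Adgrl4 (0.72) and Tmem204 (0.81), and Egfl7, by 1451428_x_at, had Selp (0.68), the P-selectin gene, Tmem88 (0.71) and Hspa8 (0.72), a heat shock protein gene. All of these lay above the reference in both populations. The distance includes the reference array, so this likeness to the members was largely set by the measure.

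The profile of Cd34 had other neighbours. Nearest to it were Ttk (0.35), Prc1 (0.36) and Mastl (0.38), which act in mitosis. Ttk had a reference signal of 1325.9 beside 581.4, 797.0 and 586.1 in SP and 377.5, 382.5 and 322.3 in NSP samples, the same order of groups as Cd34. From the other 4 genes Cd34 lay at distances of 3.96 to 5.82, while these 4 lay 0.86 to 1.98 from each other. The mean over the sorted samples minus the reference was -1.49 for Cd34, 2.44 for Egfl7, 2.74 for Esam and 3.64 for Plvap, and at least 4.22 for Emcn, whose reference signal was replaced by the floor. The distances of Emcn, the highest of both ranges among them, depend on that floor. SP minus NSP had the same direction in all 5. These distances share the same 7 arrays and are descriptions. Those of Cd34 from the other 4 genes come mostly from the reference array. That array also counts in the distances to Ttk, Prc1 and Mastl, so likeness among the sorted samples alone was not measured.

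Other endothelial markers were read from a list of 30 that includes the members. Of that list 17 could be named, and all 17 had higher signals in SP, with a median difference of 1.61, beside -0.0080 over all probe sets tested. None passed limma after adjustment and 17 did at an unadjusted p under 0.05, beside 9.86% of all probe sets in either direction and 4.77% higher in SP. The 12 that are not members all had SP samples above all NSP samples (6.74% of all probe sets), with a median of 1.81. All 17 were named from the table that the authors had selected for this contrast and the other 13 of the list have no value here, so these counts were largely set by that selection and do not bear on the label. The reference was not part of that contrast. It lay below all 6 sorted samples for 9 of the 12, beside 41.4% of the probe sets listed as higher in SP. The 12 were each read at the probe set of highest mean over the sorted samples among those that the authors listed, and unlisted probe sets were not considered. The 41.4% counts every probe set listed as higher, members included, so the shares are not alike and nothing is read from them. The largest differences between SP and NSP were those of Vwf, von Willebrand factor, at 2.78 ± 0.18, and Sox17, a transcription factor, at 2.43 ± 0.19. Vwf had signals of 553.7, 1403.4 and 692.1 in SP and of 69.1, 197.8 and 122.6 in NSP samples. Sample 2 was the highest in both populations, and in SP it stood far above the others. The summed signal of the 17 was 18700 to 22693 in SP samples, 5852 to 6255 in NSP samples and 2003 in the reference.

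The other genes of the members' pathways were fewer. Of 17 genes of endothelial junctions and passage 4 were named, Esam and Plvap among them, with 3 higher in SP and 1 lower, and none passed. Jam2, a junction adhesion molecule related to Esam, differed by 1.01 ± 0.16, and Cd99l2, a surface protein of leukocyte passage, by -0.12 ± 0.24. Of 8 sialomucin genes only Cd34 and Emcn were named.

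Of 20 genes of the vascular growth factor and Notch pathways around Egfl7, 9 were named, Egfl7 included. All 9 had higher mean signals in SP, with a median of 0.98, and none passed. The largest differences were those of Notch4 at 1.94 ± 0.41 and Tek, the angiopoietin receptor, at 1.87 ± 0.28. The smallest were those of Notch1 at 0.21 ± 0.16, Nrp1 at 0.27 ± 0.16 and Nrp2 at 0.40 ± 0.19, whose SP and NSP signals overlapped. Notch4 had NSP signals of 45.9, 8.1 and 100.6, of which sample 2 was under the floor.

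By vessel type, 4 of 9 venous and capillary genes were named and all 4 had higher mean signals in SP, with a median of 1.66. Emcn was among them, beside Aplnr at 1.85 ± 0.16 and Selp at 1.48 ± 0.22. The remaining gene, Nr2f2, differed by only 0.48 ± 0.17, with overlapping SP and NSP signals. Without the member Emcn the median was 1.48. Of 9 arterial genes 3 were named, all with higher mean signals in SP and a median of 0.47. Sox17 led them at 2.43 ± 0.19, the largest difference of either list, followed by Hey1, a Notch target, at 0.47 ± 0.18. With so few genes named, the medians do not show a lean towards either vessel type. None of 7 lymphatic genes was named. None of the arterial, venous and capillary genes passed after adjustment.

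Some members are also markers of other cells. Of 13 genes of blood stem and progenitor cells, 6 were named, all with higher mean signals in SP and a median of 1.27. Cd34, Esam and Tek are 3 of them. Mecom, a transcription factor gene outside the endothelial list, differed by 1.80 ± 0.20, and Gata2 by 0.24 ± 0.27 with overlapping SP and NSP signals. The summed signal of the 6 was 5578 to 6960 in SP samples and 3267 to 3656 in NSP samples. Of 8 megakaryocyte and platelet genes only Esam and Pf4, a platelet chemokine gene, were named, and Pf4 differed by -2.85 ± 0.36, with 241.7, 174.3 and 191.6 in SP and 2643.8, 1507.7 and 756.1 in NSP samples. Esam and Pf4 thus had opposite directions.

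Markers of other cells of the gland also differed beside the members, and their part in the members' differences was not tested. Of 10 fibroblast genes 4 were named, Cd34 among them, all with higher mean signals in SP. Dcn differed by 1.01 ± 0.20 and Col1a2 by 0.82 ± 0.20, while Pdgfra differed by 0.23 ± 0.15 with overlapping SP and NSP signals. The summed signal of the 4 was 16458 to 18724 in SP and 8400 to 11091 in NSP samples. Most of that sum was Dcn, and the other 3 summed to 3146 to 4104 in SP and 2289 to 3475 in NSP samples, which overlap. Of 9 pericyte genes 2 were named and had higher mean signals in SP, Abcc9 at 0.85 ± 0.16 and Rgs5 at 0.45 ± 0.18. Their summed signals were 628 to 1010 in SP and 353 to 592 in NSP samples. Most of that sum was Abcc9, and Rgs5 alone had 171.1 to 224.6 in SP and 124.7 to 190.1 in NSP samples, which overlap. Leukocyte genes lay the other way, with 4 of 12 named, all lower in SP, a median of -3.26 and summed signals of 415 to 675 in SP and 3378 to 10940 in NSP samples. Laptm5, a lysosomal protein gene of blood cells, differed by -4.91 ± 0.55 and Ctss, a protease gene, by -3.81 ± 0.37. None of 4 erythroid genes was named.

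Most named epithelial genes had lower signals in SP. All 5 named of 11 luminal genes were lower, with a median of -1.55, Cldn4 at -1.71 ± 0.25 and Cldn3 at -1.60 ± 0.34, and summed signals of 9538 to 17175 in SP and 29874 to 35394 in NSP samples. Of 8 basal genes 5 were named and 4 of them lower, with Trp63 at -2.42 ± 0.20 and Krt5 at -1.62 ± 0.19, while Egfr differed by 0.41 ± 0.15. The summed basal signal was 6233 to 6905 in SP and 7065 to 8693 in NSP samples, most of it from Egfr. The other 4 genes, Trp63, Krt5, Krt14 and Krt17, summed to 979 to 1135 in SP and 2872 to 4036 in NSP samples. None of these genes passed after adjustment.

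**Figure D5:**
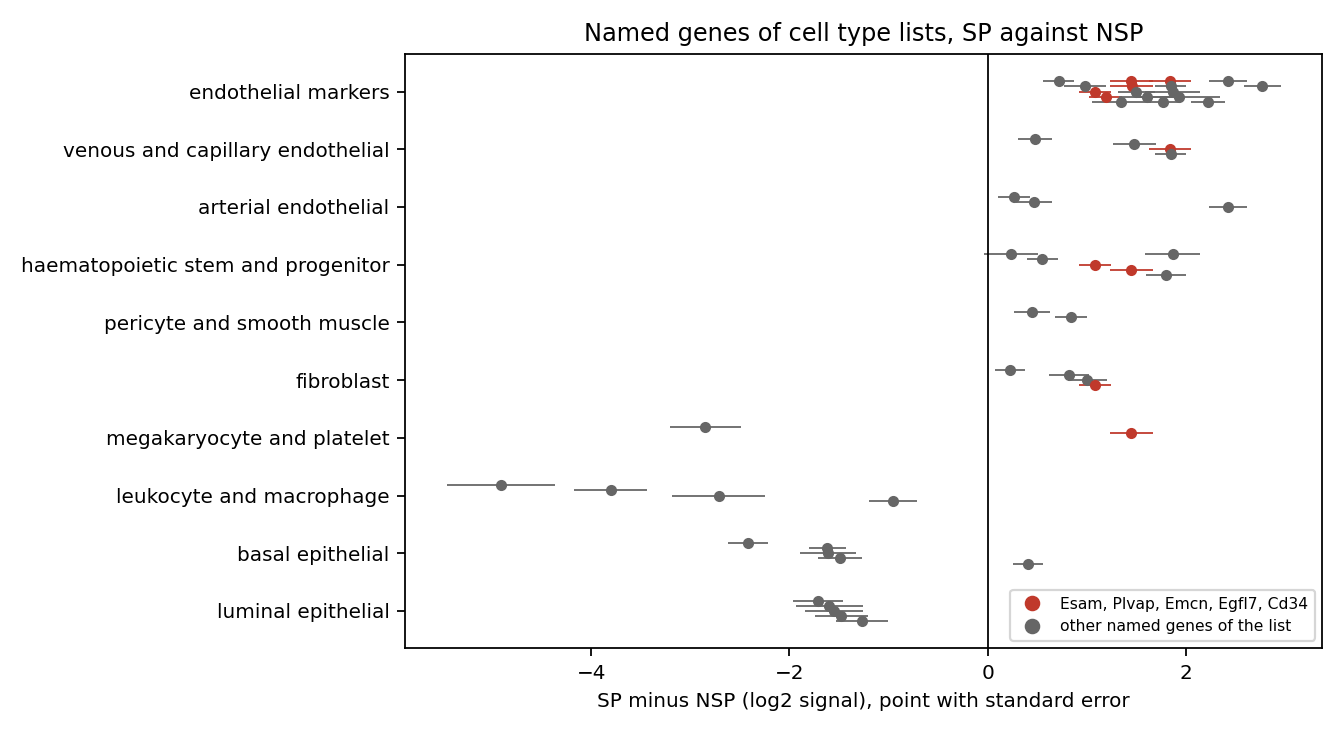
SP minus NSP (log2 signal, point with SE) of the named genes of 10 cell type lists, with the members in red. The endothelial genes lie right of 0 (median 1.61), as do stem cell, pericyte and fibroblast genes, and the leukocyte (median -3.26), luminal and most basal genes lie left of it. Lists share genes, and Pf4 of the platelet list lies left while Esam lies right.

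The arrays differed little in overall brightness, with median signals of 79.3 to 97.2 (1.23-fold), and 89.6 for the reference. The reach of the amplified copies towards the 5′ end differed more. For the Actb control probe sets the log2 ratio of 3′ over 5′ signal was 3.27 to 4.16 in SP and 2.38 to 3.92 in NSP samples, and for Gapdh it was 3.04 to 4.35 and 2.14 to 3.35, with SP higher in 3 of 3 pairs for both. Its part in the members' differences was not tested.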

How the data were processed

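RNA from 3 SP, 3 NSP and 1 reference sample was hybridised to Affymetrix mouse arrays. The deposited intensity values are linear signals, for which the submitters' processing notes name MAS5, used with no further scaling, since array medians were close. Per the file headers, the authors' comparison tables hold dChip values per array on a log scale, with present calls in percent, a paired t-test, its score and its p-value. The base of that logarithm is not given. Over 1266 listed probe sets with signals of at least 200, the SD of the dChip differences was 0.957 of that of the log2 signals. The ratio would be 0.693 for natural logs, and log2 was taken as the base, although the fold names in the titles of the authors' lists point to natural logs.

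Of 45101 probe sets, 64 controls were left out. Signals were floored at 17, and the 38115 probe sets above it on at least 3 of the 6 sorted-cell arrays were tested with limma 3.58.1 (R 4.3.3; lmFit, eBayes, two-sided, Benjamini-Hochberg, threshold 0.05), with the sample number as a block. The code was tested on simulated data. The block follows the labels' numbers and the authors' paired test. Of the 3 numbers 2 share a day, and the titles of number 2 give different years. Deviations from group means correlated at 0.039, 0.041 and 0.12 within pairs, and at -0.064 to 0.021 between samples of different pairs. With 3 arrays a group, the number of arrays limits the precision. Names came from the authors' table through RefSeq's gene table (GRCm38.p6): 1482 of 1632 probe sets had 1 symbol, 19 several and 131 none. Described were all members, their 3 nearest listed genes by profile, and up to 2 other genes of each list by size of difference. For the distances each member, and in the lists each gene, was read at its listed probe set of highest mean. The nearest genes could come from any listed probe set with 1 symbol. Egfr, Notch1, Nrp1, Nrp2, Nr2f2, Pdgfra and Gata2 were named beyond the limit of 2, after their values were seen. Proteins of the members were not used here. The members and lists were chosen with earlier results of these data known. Alternatives covered normalization, floor, filter, block, trend, array weights, dChip values and leaving out arrays.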

Additional observations from a re-analysis of the deposited data

How the results depend on the processing

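Every difference between SP and NSP of the 6 member probe sets kept its direction under each alternative run, and every order of SP, NSP and reference did too. The counts of calls moved. Against 0 probe sets and 0 members, limma called 41 (13 higher, 28 lower; 0 members) among the 16744 probe sets of highest mean, where fewer were tested, 6 (1 higher, 5 lower; 0 members) with no replicate block, 942 and 5 members with an intensity trend and the block, and 381 and 5 members with the trend and no replicate block. On the dChip values it called all 1632 listed probe sets and 6 members, which the authors had selected on these values. Leaving out each array gave 0 to 0 probe sets and 0 to 0 members, with member adjusted p of 0.564 to 0.672, and it removes that pair from the blocked fit. At an adjusted p under 0.10 both counts stayed 0. The cause of these moves was not tested where it is not stated. Against the reference, the values of Emcn moved with the floor, as given above, and adding 16 to each signal instead of flooring lowered SP minus reference to 3.21 for Esam, 3.99 for Plvap and 4.63 for Emcn. The deposited dChip values used here hold no reference array, so that alternative was not run. The number of arrays and the floor limit what can be said of dim signals such as Emcn in the reference.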
